A study of Mus musculus with 2 samples.

Results

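The proteasome family described here comprises the 45 protein-coding genes of the GENCODE M21 annotation whose symbols start with Psma, Psmb, Psmc, Psmd or Psme. They were matched by gene identifier in the deposited tables and are 45 of 55536 annotated genes, of which 22028 are protein-coding. The rule used names only, and no measured value. The RNA came from mouse regulatory T cells, the Foxp3-dependent CD4 lineage that keeps other immune cells in check, and was sequenced as polyA plus libraries. All material came from 1 adult male mouse aged 4 months, of a strain labelled Foxp3CreERT2 x Rosa26YFP, in which the Foxp3 locus drives an inducible Cre recombinase and the Rosa26 locus carries a fluorescent reporter. The labels trace the cells to a bone marrow haematopoietic cell and name no treatment, sort or gate. The 2 libraries are technical replicates of this 1 biological sample and form 1 group, so no condition is compared. In each gene, ± is the SD of the 2 libraries, which is technical (n = 2), and a difference between genes is set against that spread only.

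Library 1 held 15821875 estimated counts on genes and library 2 held 16153671. A count of 0 allows up to 3 counts, which is 0.190 CPM (counts scaled to the library total) in library 1 and 0.186 in library 2, for counting error only. Each library also has a smaller gene table, with whole-number counts on an older annotation (GENCODE M4), which is used below only as a second measure of the same libraries. Levels are given in TPM, transcripts scaled for length and to a common total, which allows genes to be set side by side. Expression was called where both libraries reached at least 1 TPM. All 5 regulatory T cell markers checked passed this threshold, with Foxp3 at 43.2 and 36.2 TPM, and all 4 T cell markers passed it. None of 4 B cell markers, 2 red cell markers and 3 thymic cortical epithelium markers did. Of 5 markers of dendritic cells and macrophages only Cd68 passed, and Itgax was listed at 0 in both libraries. The NK cell list had 1 of 2 markers past the threshold. Both CD8 T cell markers passed it, with Cd8a at 2.18 and 1.82 TPM and Cd8b1 at 10.8 and 14.3 TPM. In bulk RNA of this kind, fewer cells of a type and less RNA per cell cannot be told apart.

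The proteasome is the barrel-shaped protease that degrades ubiquitin-tagged proteins in all nucleated cells. Its 20S core is built from stacked alpha rings, encoded by Psma genes, and beta rings, encoded by Psmb genes. The 19S cap, encoded by Psmc and Psmd genes, binds ubiquitin chains, unfolds the substrate and feeds it into the core. The cutting sites sit in the beta rings on 3 subunits, encoded by Psmb5, Psmb6 and Psmb7 in the constitutive form. Lymphocytes and cells exposed to interferon gamma also make Psmb8, Psmb9 and Psmb10, which take these places and form the immunoproteasome, known for its part in making peptides for MHC class I. The Psme genes encode activators that open the core without the 19S cap.

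The 6 catalytic genes are the base of the contrast below, and the pairing of immuno with constitutive genes was set beforehand. The coding sequence of each gene around its active site is printed pair by pair. Each active subunit is cut during assembly so that a threonine becomes its first residue and attacks the peptide bond. The stretches below run 5′ to 3′ on the coding strand and hold 48 bases of the GENCODE M21 transcripts on mm10. The codon of that threonine is in capitals, with 6 codons before it and 10 codons from it onwards.
Psmb8 (chromosome 17, codon at 34199302 to 34199304, plus strand): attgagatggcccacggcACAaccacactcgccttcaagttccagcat
Psmb5 (chromosome 14, codon at 54617812 to 54617814, minus strand): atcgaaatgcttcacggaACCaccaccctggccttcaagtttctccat
Psmb9 (chromosome 17, codon at 34185795 to 34185797, minus strand): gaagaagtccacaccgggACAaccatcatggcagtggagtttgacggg
Psmb6 (chromosome 11, codon at 70525885 to 70525887, plus strand): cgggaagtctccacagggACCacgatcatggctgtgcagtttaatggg
Psmb10 (chromosome 8, codon at 105937703 to 105937705, minus strand): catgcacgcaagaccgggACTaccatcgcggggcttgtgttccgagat
Psmb7 (chromosome 2, codon at 38643382 to 38643384, minus strand): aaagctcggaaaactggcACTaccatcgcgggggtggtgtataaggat
From the threonine codon to the end of the coding sequence, Psmb8 and Psmb5 were identical at 68.0% of 612 aligned bases. Psmb9 and Psmb6 were identical at 64.5% of 597 bases, and Psmb10 and Psmb7 at 63.1% of 696. The other 12 pairings among the 6 genes lay between 49.9% and 57.2%. Psmb8 shared 0.23% of its 50-base transcript windows with another gene on the same strand, and Psmb9 and Psmb10 shared none.

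Of the 45 family genes, 43 were expressed, against 46.5% of all protein-coding genes. The exceptions were the 2 members known for restricted tissues. Psma8, an alpha subunit of male germ cells, had 15 and 3 counts, or 0.79 and 0.14 TPM. Psmb11, a catalytic beta subunit of the thymic cortical epithelium, had 1 and 0 counts. The median of all 45 members was 131 TPM, against 18.5 TPM for expressed protein-coding genes and 0.625 TPM for all protein-coding genes. Of the 43 expressed members, 41 stood above the median of expressed protein-coding genes and 27 stood above their 90th percentile. The lowest expressed member stood at percentile 24.9. The family summed to 7186 TPM in library 1 and 7353 TPM in library 2, which is 0.618% and 0.642% of the counts. The libraries gave nearly the same levels: over the expressed members the median gap between them was 5.21% of the mean, and the largest was 24.1%, in Psmd13.

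**Figure D1:**
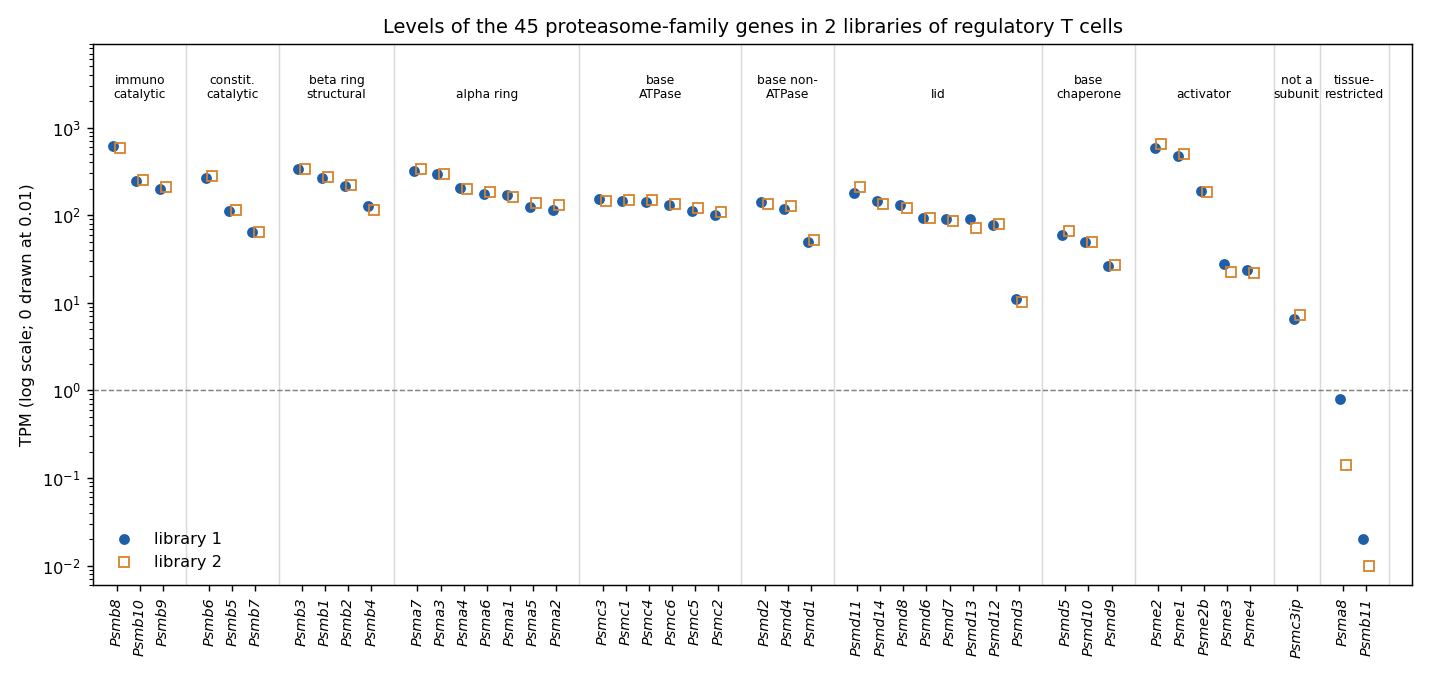
TPM of all 45 members in both libraries (log scale, 0 drawn at 0.01), grouped by role and sorted by mean within a role; the dashed line marks 1 TPM. All members but Psma8 and Psmb11 lie above the line. Psme2, Psmb8 and Psme1 lie highest, between 471 and 652 TPM. Psmb10 and Psmb9 lie among the alpha and beta ring genes, between 198 and 252 TPM.

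The immuno subunits as a group were higher than the constitutive ones, but not at every active site. Their sum was 1057 TPM in library 1 and 1042 TPM in library 2, against 441 and 461 TPM for the constitutive subunits, a ratio of 2.33 ± 0.098. The immuno genes held 70.0 ± 0.88% of the catalytic TPM. They were higher at 2 of the 3 sites, and at the remaining site Psmb9 was lower than Psmb6. The gap at each site was larger than the gap between the libraries.

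Psmb8, the immuno subunit at the chymotrypsin-like site (mm10 chr17:34197721-34201454, plus strand), reached 613 TPM in library 1 and 581 TPM in library 2, from 7434 and 7455 counts. Its constitutive counterpart Psmb5 (chr14:54614119-54618022, minus strand) stood at 110 and 115 TPM, from 1166 and 1273 counts. Psmb8 was therefore 5.31 ± 0.355 times as high as Psmb5, a log2 ratio of 2.41 ± 0.10. Within the family, Psmb8 had the highest estimated count.

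Psmb10, the immuno subunit at the trypsin-like site (chr8:105935735-105938444, minus strand), stood at 246 and 252 TPM. Psmb7, which it replaces (chr2:38588036-38644087, minus strand), stood at 64.3 and 64.7 TPM, the lowest of the 6 catalytic genes over all transcripts. Another gene was lowest by 2 other measures: Psmb9 over protein-coding transcripts, with a mean of 53.6 TPM against 63.5 TPM for Psmb7, and Psmb5 in the smaller gene table over effective length, with 144 against 184 on a scale like TPM. The ratio of Psmb10 to Psmb7 was 3.87 ± 0.05, a log2 ratio of 1.95 ± 0.02.

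Psmb9, the immuno subunit at the caspase-like site (chr17:34181987-34187764, minus strand), stood at 198 and 209 TPM. Psmb6, its counterpart (chr11:70525367-70527858, plus strand), stood at 266 and 281 TPM. Psmb9 was lower than Psmb6 in both libraries, with a ratio of 0.742 ± 0.002 and a log2 ratio of -0.43. The authors' deposited intervals for the posterior mean TPM, whose level is not stated, did not overlap in either library. They ran from 172 to 189 TPM for Psmb9 and from 228 to 247 TPM for Psmb6 in library 1, and from 178 to 198 and from 243 to 261 TPM in library 2.

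Levels within each set differed as well. Psmb8 was 2.94 ± 0.22 times as high as Psmb9 and 2.40 ± 0.13 times as high as Psmb10. The order of Psmb8 and Psmb10 turned round in the smaller gene table over merged exon length, with 476 and 778 on a scale like TPM. Among the constitutive genes, Psmb6 was 4.25 ± 0.15 times as high as Psmb7 and 2.43 ± 0.03 times as high as Psmb5. In TPM over all transcripts, Psmb6 lay inside the range of the structural beta ring genes, and Psmb5 and Psmb7 lay below it. This placing changed with the measure. Over protein-coding transcripts, where Psmb4 stood at 27.8 TPM, and in the smaller table over merged exon length, all 3 lay inside the range. In the smaller table over effective length, Psmb6 lay above it with 581, against 498 for the highest structural gene, Psmb7 lay inside and Psmb5 below.

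The 3 immuno genes gave much of their TPM to transcripts not annotated as protein-coding, and the size of the contrast depends on which transcripts are counted. For Psmb8, 54.1 ± 1.20% of TPM went to the protein-coding transcript Psmb8-203 and 41.7 ± 0.20% to Psmb8-205, a retained-intron transcript of 5 exons. For Psmb10, 43.1 ± 1.97% went to the protein-coding Psmb10-201, and the retained-intron transcripts Psmb10-204 and Psmb10-205 took 23.3 ± 2.42% and 21.6 ± 7.17%. The leading transcript of Psmb9 was Psmb9-207, annotated as a target of nonsense-mediated decay, with 50.7 ± 5.57%, ahead of the protein-coding Psmb9-204 with 23.7 ± 0.53%. The constitutive genes differed in this respect: Psmb5, Psmb7 and Psmb6 gave 100%, 98.5% and 89.6% of TPM to protein-coding transcripts. They also have fewer annotated transcripts, 2, 2 and 4 in this order, against 7 for each immuno gene. The part of the annotation in this difference was not tested.

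Counting protein-coding transcripts alone, Psmb8 stood at 349 and 322 TPM against 110 and 115 TPM for Psmb5, a ratio of 2.99 ± 0.256. Psmb10 stood at 103 and 112 TPM, against 63.4 and 63.5 TPM for Psmb7, a ratio of 1.69 ± 0.104. The gap at Psmb9 widened. It stood at 47.8 and 59.4 TPM against 238 and 252 TPM for Psmb6, a ratio of 0.218 ± 0.025. The direction at each site was the same as with all transcripts, but the ratio of the sums shrank to 1.18 ± 0.048. The annotated type does not say whether the active-site codons are present: Psmb8-205, Psmb9-207 and Psmb10-204 hold the stretch printed above in full, whereas Psmb9-205 and Psmb10-205 do not. Transcripts with the whole stretch carried 99.4% of TPM in Psmb8, 74.5 ± 6.10% in Psmb9 and 67.4 ± 3.00% in Psmb10, against 100% in Psmb5, 91.0% in Psmb6 and 100% in Psmb7. On those transcripts the log2 ratios were 2.40 for Psmb8 over Psmb5, -0.72 for Psmb9 over Psmb6 and 1.38 for Psmb10 over Psmb7. This count was added after the transcript shares had been seen.

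**Figure D2:**
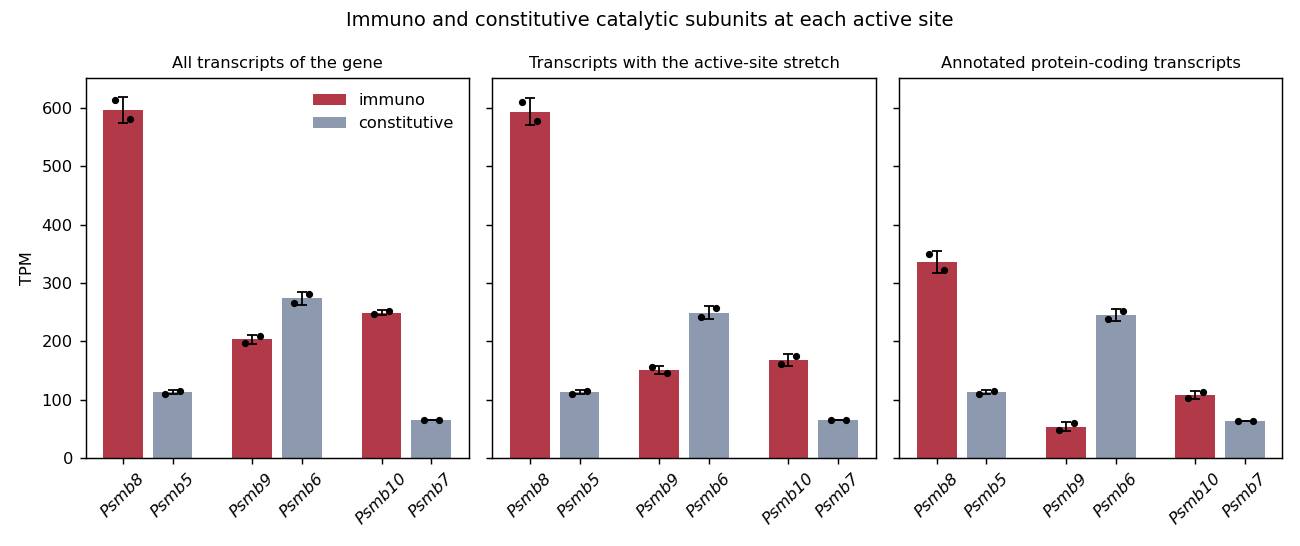
TPM of the immuno and constitutive gene at each active site: bars are the mean of 2 libraries, points are the libraries and error bars are the SD. Psmb8 and Psmb10 stand above Psmb5 and Psmb7 and Psmb9 below Psmb6 in all 3 panels, while the immuno bars are lower where only annotated protein-coding transcripts are counted.

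The smaller whole-number gene table gave the same direction at each site with other sizes. Divided by the effective length of the larger table, its counts gave log2 ratios of 2.24 for Psmb8 over Psmb5, -0.64 for Psmb9 over Psmb6 and 1.71 for Psmb10 over Psmb7. Divided by merged exon length they gave 0.53, -1.05 and 2.39 for these pairs in that order. Psmb5 also shares sequence with a pseudogene, described below, and its part in these ratios was not tested.

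The rest of the core was expressed at a similar order of magnitude. The 7 alpha ring genes, which form the gate of the barrel, had a median of 180 TPM. Psma7 was highest with 320 and 335 TPM, and Psma2 was lowest with 113 and 132 TPM, although Psma3 was lower than Psma2 over protein-coding transcripts, with a mean of 92.6 against 123 TPM. The other 5 lay between 131 and 297 TPM. This order changed in the smaller gene table, scaled like TPM. Over merged exon length Psma6 was highest with 835 and Psma3 lowest with 75.9. Over effective length Psma7 stayed highest with 637 and Psma5 was lowest with 84.8. The 4 structural beta ring genes, which carry no active site, had a median of 245 TPM. Psmb3 led them with 339 and 337 TPM. Psmb1 followed with 265 and 276 TPM and Psmb2 with 217 and 224 TPM, and Psmb4 stood lowest with 129 and 115 TPM. Products of these genes are built into the core in equal number. In TPM over all transcripts, RNA levels differed 2.66-fold between the highest and lowest alpha genes. Between the highest and lowest structural beta genes they differed 2.77-fold. These ranges depend on the measure: over protein-coding transcripts the structural beta genes ran from 27.8 TPM in Psmb4 to 332 TPM in Psmb3. The alpha range was also wider in the smaller table, as given above.

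In the 19S cap, the ATPase ring was the most even group in TPM. Its 6 genes, Psmc1 to Psmc6, encode the motors that unfold substrates, and ran from 101 and 109 TPM in Psmc2 to 152 and 147 TPM in Psmc3, a 1.42-fold range with a coefficient of variation of 13.8%. Over protein-coding transcripts the range was wider, from 46.9 TPM in Psmc6 to 135 TPM in Psmc3. It was wider as well in the smaller gene table over merged exon length, from 280 in Psmc2 to 853 in Psmc5 on a scale like TPM. Over effective length that table gave 327 in Psmc2 to 461 in Psmc3. The 3 non-ATPase Psmd genes of the base had a median of 123 TPM. Psmd2, a scaffold that holds shuttle factors, stood at 140 and 133 TPM, and Psmd4, a ubiquitin receptor, at 119 and 127 TPM. Psmd1, the other large scaffold, was lower at 49.9 and 51.9 TPM.

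The lid, which surrounds the deubiquitinase encoded by Psmd14, was the least even part of the cap in TPM over all transcripts. Its coefficient of variation was 52.7% over 8 Psmd genes. Psmd14 itself stood at 145 and 134 TPM. Psmd11, a structural lid subunit, was highest with 178 and 207 TPM. Psmd3, another structural lid subunit, had only 11.2 and 10.3 TPM, from 280 and 283 counts. Psmd3 was also the lowest lid gene over protein-coding transcripts and in the smaller gene table over merged exon length and over effective length. In TPM over all transcripts, the lid otherwise spanned 78.2 to 193 TPM. The genes of 2 complexes of related architecture were uneven as well. The coefficient of variation was 58.1% over 10 genes of the COP9 signalosome, from Cops7b (12.8 and 12.6 TPM) to Cops9 (181 and 186 TPM). It was 90.6% over 14 genes of translation factor eIF3, from Eif3j1 (3.09 and 2.74 TPM) to Eif3h (508 and 517 TPM). These lists hold like-named pairs, Cops7a with Cops7b and Eif3j1 with Eif3j2, and the lid genes hold none. The values are therefore not strictly like for like.

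The median of the 14 constitutive core genes was 188 TPM in library 1 and 194 TPM in library 2. That of the 17 Psmc and Psmd genes of the cap was 119 and 121 TPM, and the ratio of core to cap was 1.59 ± 0.008. This order was not kept by the smaller gene table, whose counts gave 0.871 over merged exon length and 0.960 over effective length. The order of core and cap thus depends on the table used. Orders of single genes changed as well: over effective length and scaled like TPM, the smaller table gave 182 for Psmb3 and 422 for Psmb4, the reverse of their order in TPM.

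The 3 chaperones that assemble the base had a median of 49.3 TPM, against 139 TPM for the ATPases. Psmd5 stood at 60.03 and 66.4 TPM, Psmd10, also known as gankyrin, at 49.3 and 49.2 TPM, and Psmd9 at 26.0 and 27.2 TPM. Psmc3ip carries the prefix of the ATPase genes but encodes a meiotic recombination factor and no subunit. It was the lowest expressed member with 6.46 and 7.32 TPM.

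The activators split into high and low members. Psme1 and Psme2 encode the alpha and beta chains of the interferon-inducible activator ring that docks on the core in place of the cap. Psme1 (chr14:55578123-55581529, plus strand) stood at 471 and 494 TPM, and Psme2 (chr14:55587441-55591113, minus strand) at 581 and 652 TPM, the highest mean of the family, although Psmb8 was higher in library 1. The ratio of Psme1 to Psme2 was 0.784 ± 0.038. The smaller gene table turned this order round: over effective length and scaled like TPM, its counts gave 540 for Psme1 and 310 for Psme2. Psme3, which encodes the related nuclear activator, stood at 27.7 and 22.2 TPM, and Psme4, which encodes a large monomeric activator, at 23.5 and 21.8 TPM. Psme1 was 19.7 ± 3.71 times as high as Psme3.

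Psme2b, a gene of 1 exon on chromosome 11 (48945354 to 48946190, minus strand), stood at 190 and 185 TPM. Its coding sequence differs from that of Psme2 at 13 of 693 aligned bases, an identity of 98.1%, so reads of one can be given to the other. The stretch of 60 coding bases that holds 3 of these differences is shown for both genes, 5′ to 3′ on the coding strand from the GENCODE M21 transcripts, with the differing bases in capitals.
Psme2 (chromosome 14, coding bases 460 to 519): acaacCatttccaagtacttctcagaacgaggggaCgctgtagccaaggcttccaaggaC
Psme2b (chromosome 11, coding bases 484 to 543): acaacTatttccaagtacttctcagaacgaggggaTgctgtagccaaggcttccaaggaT
Reads without such a base fit both genes: Psme2b shared 69.3% of its 50-base windows with other genes and Psme2 shared 28.3%. The authors' posterior SD of the count was 56.1 and 58.6 counts for each of these genes in libraries 1 and 2, while Psme1 had 2.64 and 2.60 counts. The split between them is uncertain to at least that degree, and it changed with the table used. Scaled like TPM, the smaller gene table gave 274 for Psme2 and 311 for Psme2b over merged exon length. Over effective length it gave 310 for Psme2 and 137 for Psme2b. The pair summed to 772 and 837 TPM, and 23.4 ± 1.83% of that sum was given to Psme2b.

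Across the family, most members gave most of their TPM to protein-coding transcripts. In 40 of the 43 expressed members the leading transcript by TPM was protein-coding, and in 42 both libraries named the same leader. The share of TPM on protein-coding transcripts had a median of 90.5% over the members and 84.5% over all expressed protein-coding genes. It was 90% or more in 23 of the 43 members, against 41.6% of all expressed protein-coding genes, and under 50% in 7 members, against 18.8% of those genes. The leaders that were not protein-coding belonged to Psmb9, to Psma3 (a retained-intron transcript, Psma3-203, with 39.1 ± 2.23%) and to Psmb4 (a retained-intron transcript, Psmb4-202, with 43.8 ± 1.46%). By estimated count in place of TPM, 38 members had a protein-coding leader. Psmb8 moved to the retained-intron Psmb8-205 with 3753 and 3752 counts, and Psmd5 to the retained-intron Psmd5-203 with 929 and 1035 counts. Psmc3ip, with 87.5 and 94.0 counts, was the member whose leader differed between the libraries.

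**Figure D3:**
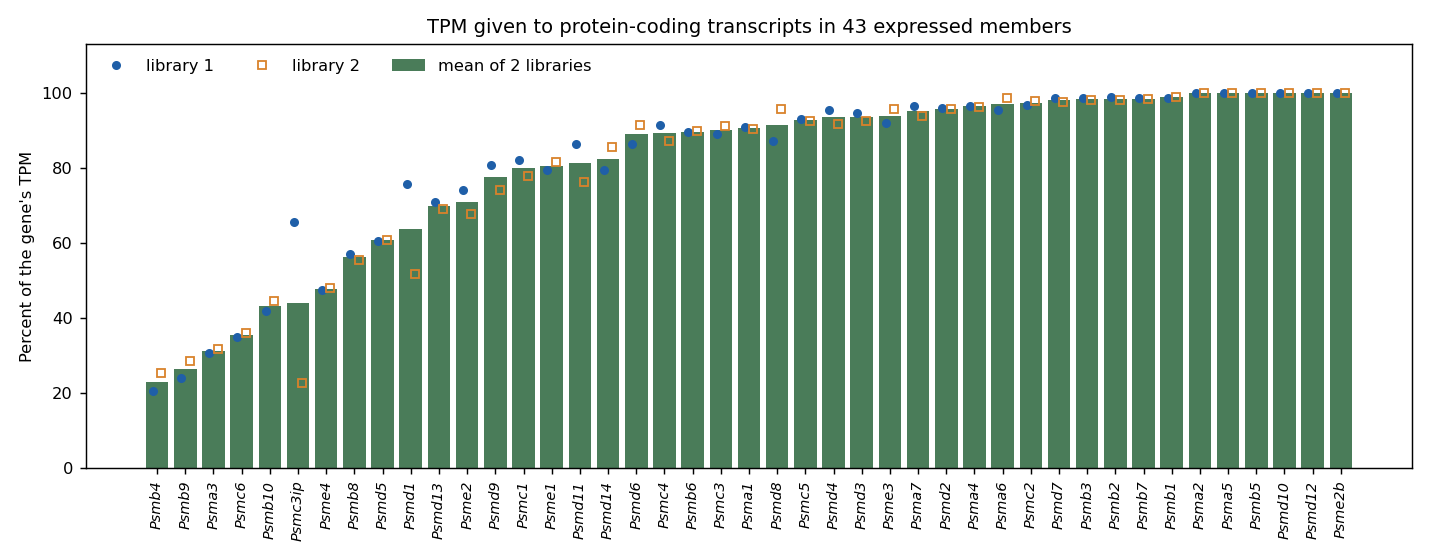
Share of each expressed member's TPM on annotated protein-coding transcripts, in percent (bars: mean of 2 libraries; points: each library), sorted from low to high. Psmb4, Psmb9, Psma3, Psmc6, Psmb10, Psmc3ip and Psme4 lie under 50%, and Psmb8 follows at 56.2%.

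Copies elsewhere in the genome touch several members. Of the 43 expressed members, 9 shared 10% or more of their 50-base windows with another gene on the same strand. Psmb5 shared 54.1%, mostly with the processed pseudogene Gm3375. Psmb5 was given 1166 and 1273 counts, against 9.35 and 9.26 for the pseudogene. Psma5 shared 49.1% with 2 pseudogenes of low count. Psma3 shared 15.4% with the processed pseudogene Gm13835 and was listed at 296 and 298 TPM, against 101 and 129 TPM for the pseudogene. These pseudogenes are named after their values were seen. In Psma3 the posterior SD of the count was 68.6 and 84.1 counts. Its level and that of the pseudogene are uncertain to at least that degree. Scaled like TPM, the smaller gene table gave 75.9 for Psma3 over merged exon length and 114 over effective length.

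The smaller gene table held 23.7% as many counts as the larger one in library 1 and 22.8% in library 2, and the members with shared sequence kept less. The 9 members with 10% or more shared windows kept a median of 13.7% of their estimated count in the smaller table, with a range from 7.20% in Psma3 to 45.9% in Psmd2. The other 34 members kept a median of 49.1%, from 20.99% in Psme1 to 73.8% in Psme4, and all expressed protein-coding genes found in both tables kept a median of 40.5%. Psmb8 was among the low values of this larger set, at 21.4%, with 0.23% of its windows shared. How the smaller table treated reads with several positions, or the strand, is not given in the sources used here.

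**Figure D4:**
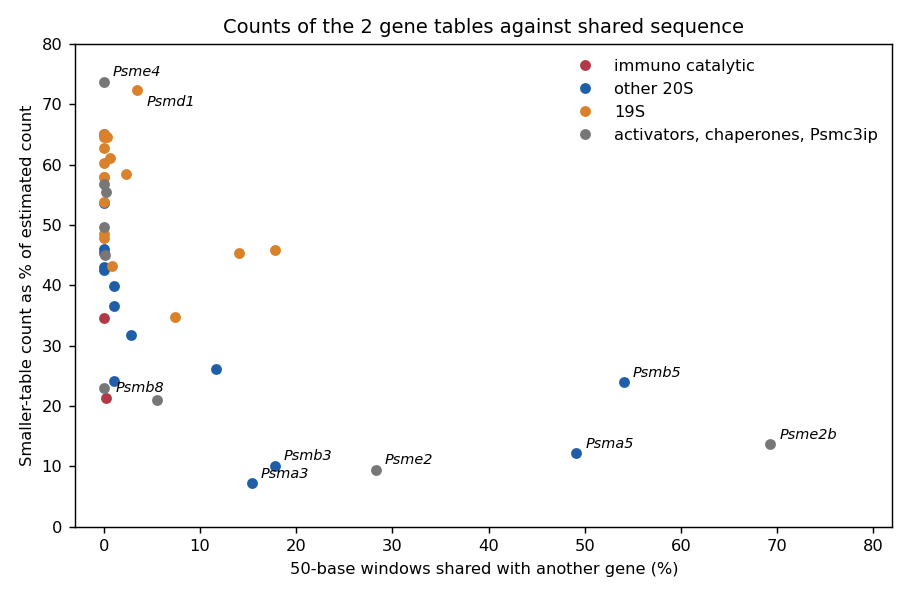
Counts of the smaller gene table as a percent of the estimated count (vertical axis, both libraries summed) against the percent of 50-base windows shared with another gene (horizontal axis), for the 43 expressed members. Psma3, Psme2, Psmb3, Psma5 and Psme2b lie lowest, under 15%, and Psmb8 lies at 21.4% with almost no shared windows.

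To see how far the libraries themselves differ, each gene's rounded estimated counts were put to a two-sided exact binomial test, with Benjamini-Hochberg adjustment over the 17458 genes that had at least 10 counts in sum. This sets 1 library against the other and no condition against another. Of the 44 members tested, 16 passed, 4 higher in library 1 and 12 higher in library 2, against 25.1% of all genes tested (13.2% higher in library 1 and 11.9% higher in library 2). Among genes with at least 500 counts in sum, where most members lie, 34.2% passed, close to the 36.4% of the members. The largest difference among expressed members was in the lid gene Psmd13, with 1115 counts in library 1 and 843 in library 2, a log2 ratio of 0.43 (adjusted p = 2.49e-09, exact binomial test). The alpha ring gene Psma2 had 2580 and 3155 counts, a log2 ratio of -0.26 (adjusted p = 5.32e-10, exact binomial test). The activators Psme1 and Psme2 were lower in library 1, by log2 ratios of -0.13 and -0.14, and Psmb10 and Psmb6 were lower in library 1 as well, by -0.12 for each gene. Psmb8, Psmb9, Psmb5 and Psmb7 did not pass.

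With a difference of 1.5-fold also required, 1 member passed, the low-count Psma8, against 8.8% of all genes. The members' log2 ratios were negative in 31 of 44, with a median of -0.06, against -0.0005 over all genes. The test covers counting error only, and the libraries varied by a further 13.0% (the common coefficient of variation that edgeR estimates over both libraries), so its p-values are too small. Allowing for that variation, edgeR's exact test called 0 of the 44 members, against 2.1% of all genes tested. At an unadjusted p under 0.05 it had 1 member, against 9.1% of all genes, where the binomial test had 19 members, against 34.7% of all genes. The variation that edgeR allowed for was estimated over all genes from the same 2 libraries, so it includes the differences under test. Its 0 calls therefore do not show that the members are alike in both libraries. In the smaller gene table the binomial test called 2 of the 43 members tested, against 10.5% of all genes tested there. They were Psmc2 and Psmd13, both also called in the larger table.

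**Figure D5:**
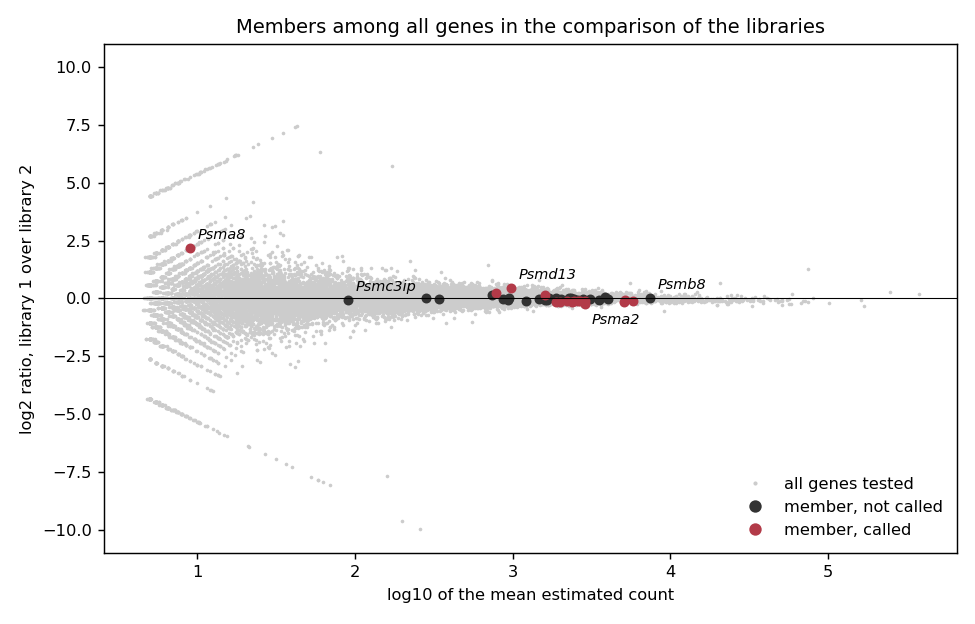
Log2 ratio of library 1 over library 2 for all 17458 genes tested (grey) and the 44 members tested (black: not called; red: called by the exact binomial test), against the log10 of the mean estimated count. The expressed members lie between -0.26 and 0.43, near 0 for their depth, and Psma8, with 15 and 3 counts, lies at 2.18.

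The genes that work with the immunoproteasome were expressed as well. The peptide loading list, chosen with the transporters and chaperones of MHC class I and their regulators, had 12 of 12 genes expressed and a median of 166 TPM. Its highest gene was B2m, the light chain of MHC class I, with 6577 and 6948 TPM, and its lowest mean was that of Tapbpl, a peptide editor, with 67.1 and 65.5 TPM, although Tap2 and Erap1 were lower than Tapbpl in library 2. Nlrc5, the transactivator of class I genes, stood at 149 and 138 TPM. The transporter genes Tap1 and Tap2 lie beside Psmb9 and Psmb8 on chromosome 17 in the order Psmb9, Tap1, Psmb8, Tap2. Tap1 stood at 127 and 121 TPM, and Tap2 at 79.3 and 58.7 TPM. The gene models of Psmb9 and Tap1 run head to head and overlap by 212 bases, and 495 bases separate Tap1 from Psmb8. Reads from such an overlap cannot be told apart where counting does not use strand. Neighbours need not share a level: Psmb11 lies next to Psmb5 on chromosome 14 and had 1 and 0 counts, against 1166 and 1273 for Psmb5.

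The genes that assemble and regulate the proteasome had a median of 33.9 TPM, against 131 TPM for the members, and all 22 were expressed. Pomp, the chaperone that matures the core, was highest with 352 and 399 TPM. Sem1, the smallest lid subunit, stood at 117 and 125 TPM, and Adrm1, a ubiquitin receptor of the cap, at 66.9 and 61.8 TPM. Neither gene was counted in the cap groups above, which hold only Psmc and Psmd genes. Nfe2l1, a transcription factor that induces proteasome genes when the protease is inhibited, stood at 17.1 and 15.8 TPM. The shuttle factor gene Ubqln2 was lowest with 3.44 and 3.51 TPM.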

How the data were processed

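The authors deposited, for each library, a larger gene table and a transcript table on mm10 with GENCODE M21, made from transcriptome alignments per the deposited readme, and a smaller gene table with GENCODE M4 from an earlier alignment. Per the file headers, the larger tables hold expected counts (estimated counts per feature, made by the authors without scaling), TPM (maximum likelihood and posterior mean), FPKM scaled by the authors for length and depth, and, for transcripts, the percent of a gene's TPM. The deposited smaller table holds raw whole-number counts. Aligner, counter and versions were not given in the sources used here; the column names of the larger tables are those of RSEM.

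Members, gene lists and tests were chosen with earlier results of these data known. Named genes are all members, and from each list the highest, the lowest and at most 3 others; neighbours are named by position. The result of 1 gene list is not reported here. The list genes were matched by symbol, 1 of them (Ecpas) through an older symbol. Levels are the deposited TPM. Shared windows are the 50-base windows of a gene's transcripts that also occur in another gene on the same strand. Coding sequences were aligned globally with Biopython 1.88. Library sizes came from TMM (edgeR 4.0.16, R 4.3.3), the log2 of library 1 over library 2 used a prior count of 0.5, and other steps used Python 3.11.15, pandas 2.3.3 and SciPy 1.17.1. This test was checked on simulated data with known changes. The simulated counts held counting error only, so the check could not show the effect of further variation between the libraries. Alternatives were other level measures, expression thresholds of 0.5 and 5 TPM, other scalings (totals; DESeq2 1.42.0 size factors), count minimums of 1 and 50, edgeR's exact test, the smaller table and each library alone. A promoter or protein sequence is not printed.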

Additional observations from a re-analysis of the deposited data

How the results depend on the processing

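No paired analysis was possible because the series holds 1 group of technical replicates. No result reversed its direction within the catalytic pairs under any alternative run. Thresholds of 0.5 and 5 TPM kept the count of expressed members within 1.5 times. FPKM left each result as it was, but it was rescaled to the TPM total, which returns TPM, so it could not test the results. The median level of the members, 131 TPM, was 117 as posterior mean TPM, 113 over protein-coding transcripts, and 311 and 320 from the smaller gene table over merged exon length and effective length. The core-to-cap ratio of medians, 1.59, was 1.51 over protein-coding transcripts, 0.871 over exon length and 0.960 over effective length. For protein-coding transcripts, exon length and effective length in this order, the log2 ratio of Psmb8 to Psmb5 was 1.58, 0.53 and 2.24; that of Psmb9 to Psmb6 was -2.20, -1.05 and -0.64; that of Psmb10 to Psmb7 was 0.76, 2.39 and 1.71; and that of the sums was 0.24, 0.55 and 0.87. On transcripts with the active-site stretch, the ratio of Psmb9 to Psmb6 was -0.72, that of Psmb10 to Psmb7 was 1.38 and that of the sums was 1.10; posterior mean TPM gave -0.41 for Psmb9 to Psmb6. In the same order, the coefficient of variation was 52.5%, 65.0% and 55.2% in the core and 41.7%, 53.8% and 31.6% in the cap; with 1 library left out, that of the core ran from 43.3% to 43.6%. Members differing between the libraries, 16, became 0 with edgeR's exact test and its common dispersion (1 at an unadjusted p under 0.05), 1 with a 1.5-fold minimum and 2 in the smaller table, against 2.1%, 8.8% and 10.5% of all genes tested in this order. The cause of these moves was not tested. Of 43 single member levels, 10 moved over 1.5-fold over protein-coding transcripts, 35 over merged exon length and 36 over effective length. As posterior mean TPM 0 moved that far, and 0 as the rescaled FPKM, where none could. The smaller table was scaled to its own total. In it, members stood at a median of 2.56 times their TPM over merged exon length and 2.42 times over effective length. Its counts of moved members, 35 and 36, therefore include a rise shared by most members. The values over effective length and over the active-site stretch were added after the data had been seen. With 2 technical libraries of 1 mouse, variation between animals is not measured.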
